A study of Mus musculus with 16 samples.

Results

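The genes described here encode the receptors and co-receptors through which mouse lung endothelial cells (MLECs) receive ligands of the BMP and TGF-β family. They are the co-receptors *Eng* (endoglin) and *Tgfbr3* (betaglycan), the type I receptors *Acvrl1* (ALK1), *Tgfbr1* (ALK5), *Bmpr1a* (ALK3) and *Acvr1* (ALK2), and the type II receptors *Tgfbr2*, *Bmpr2*, *Acvr2a* and *Acvr2b*. These 10 genes were found by their symbols among the 55414 genes of the deposited count table, and all 10 were among the 15693 genes with enough counts to be tested. MLECs came from 4 independent isolations of Eng fl/fl mice on a C57BL/6 background that carried Rosa26-CreERT2 and the Immorto transgene, which keeps cells dividing in culture at the permissive temperature. The cells were selected with CD31-coated and then ICAM2-coated beads and grown with interferon-γ and SB431542, an inhibitor of the TGF-β type I receptor kinases. Both were withdrawn before the cells were serum-starved and treated. Each isolation gave 4 libraries. Ctrl cells (WT in the labels) received vehicle, and KO cells received 4-OH-tamoxifen, which activates the Cre recombinase. Each was then given PBS or BMP9 for 90 min, the latter at a growth factor domain concentration of 0.2 ng/ml. The ligand of Ctrl cells was sENG(M):BMP9, that is BMP9 held by a soluble monomeric form of ENG, whereas that of KO cells was pro:BMP9, in which it is held by its own prodomain. The effects of 4-OH-tamoxifen itself and of the *Eng* deletion therefore cannot be told apart between the genotypes. In comparisons that use ligand-treated cells of both genotypes, the form of the ligand cannot be separated from them either. A large excess of sENG was used to keep the complex stable. Within Ctrl cells the effects of BMP9 and of the excess sENG therefore cannot be told apart. The 4 groups, with 4 libraries each, are named by genotype and treatment (Ctrl PBS and Ctrl sENG(M):BMP9, KO PBS as well as KO pro:BMP9), and the age of the mice was not given.

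Ligands of this family assemble a complex of type I and type II receptor kinases on the cell surface. The constitutively active type II kinase phosphorylates the type I receptor, which in turn phosphorylates SMAD transcription factors. BMP9 binds ALK1, a type I receptor that is found mainly on endothelial cells, together with BMPR2 or an activin type II receptor, and the complex signals through SMAD1 and SMAD5. TGF-β binds TGFBR2 and ALK5 and signals through SMAD2 and SMAD3. Endoglin has no kinase of its own and presents BMP9 to the cell surface, and betaglycan does the same for TGF-β2. Mutations in the human genes for endoglin and ALK1 cause hereditary haemorrhagic telangiectasia, and those in *BMPR2* cause pulmonary arterial hypertension.

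Sequencing depth was similar in all libraries, with totals from 14869115 to 17242117 counts and a median of 15996523.5. Expression is given as CPM, counts scaled to a common library size after TMM normalisation. All 12 endothelial markers, among them *Pecam1*, *Cdh5* and *Kdr*, were among the tested genes, and their summed expression lay between 3595 and 7882 CPM, lowest in isolation 3 and highest in isolation 2 in every group. The 12 mural and fibroblast markers summed to between 193 and 718 CPM, the 8 leukocyte markers to between 58.6 and 144 CPM and the 8 epithelial markers to between 62.7 and 231 CPM, with *Sftpc*, the surfactant gene of alveolar type II cells, at 0 counts in every library. Of 4 lymphatic endothelial markers, the hyaluronan receptor gene *Lyve1* was abundant, at 3036 to 5712 CPM, and *Ccl21a* reached at most 2.64 CPM, so that the list summed to between 3485 and 6991 CPM. As these are bulk cultures, fewer cells of a type and less RNA per cell cannot be told apart. SMAD1/5 target genes rose with both ligands. *Smad6*, which encodes an inhibitory SMAD, rose 11.0-fold in Ctrl cells and 9.25-fold in KO cells, and *Smad7*, *Id1* and *Id3* also rose in both (adjusted p from 2.10e-17 to 2.05e-10, edgeR quasi-likelihood test). Of 17 tested genes on the target list, 14 rose in each ligand comparison, against 5.86% of all tested genes in Ctrl and 3.68% in KO cells.

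Of the 10 receptor genes, 5 rose after sENG(M):BMP9 in Ctrl cells and none fell. They were *Eng*, *Acvrl1*, *Bmpr1a*, *Acvr1* and *Bmpr2*. A gene passed when its Benjamini-Hochberg adjusted p over the 15693 tested genes was under 0.05, with the isolation as a block in the edgeR fit. In this comparison 9.69% of all tested genes passed in either direction and 5.86% passed as higher. After pro:BMP9 in KO cells, 4 of the 10 rose (*Eng*, *Acvrl1*, *Acvr1* and *Bmpr2*) and none fell, while 5.59% of all genes passed in either direction and 3.68% as higher. The 10 genes had a median log2 fold change of 0.12 in Ctrl and 0.07 in KO cells, against -0.0051 and 0.00042 for all tested genes. None of the genes centred on TGF-β, *Tgfbr1*, *Tgfbr2* and *Tgfbr3*, passed in either comparison, nor did *Acvr2a* and *Acvr2b*. The counts rest on the block: without the isolation as a term 1 receptor gene passed in each comparison, *Acvr1* in Ctrl and *Eng* in KO cells. The plot of fold changes gives the interval of every gene.

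**Figure D1:**
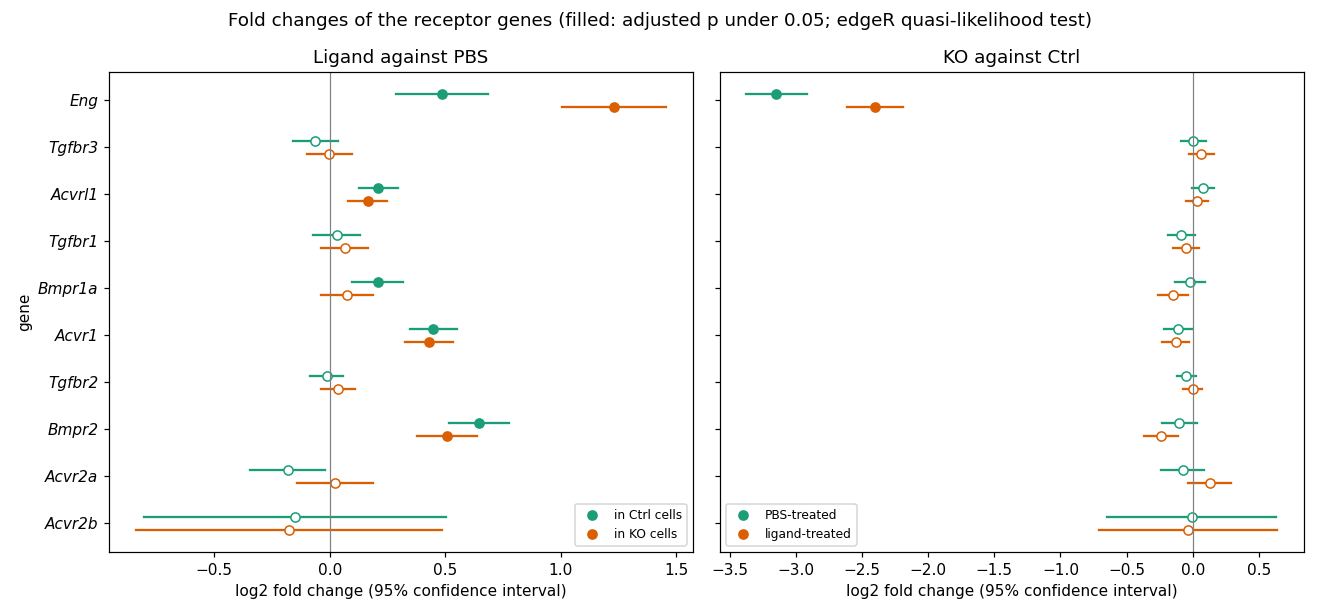
Log2 fold changes of the 10 receptor genes (x axis, with 95% confidence intervals; y axis, genes), on the left for ligand against PBS in Ctrl (green) and KO cells (orange) and on the right for KO against Ctrl cells treated with PBS (green) or ligand (orange), 4 libraries a group. Filled points passed an adjusted p of 0.05. *Eng*, *Acvrl1*, *Acvr1* and *Bmpr2* are filled in both ligand comparisons, and *Eng* alone is filled on the right, at -3.15 and -2.40.

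Because *Eng*, *Acvrl1*, *Acvr1* and *Bmpr2* rose in both ligand comparisons, the 250 bases before the annotated start of each are shown, with those of *Tgfbr2*, which passed in neither, beside them. The sequences were read from GRCm39 at the GENCODE canonical transcript, whose start can differ from the gene bounds of the deposited table, and are written 5′ to 3′ on the strand of the gene. Capitals mark GGCGCC, the GC-rich motif bound by SMAD1 and SMAD5, which reads the same on both strands, and GTCTG or its reverse complement CAGAC, which SMAD4 and SMAD3 bind. No matches overlap.
Eng (chr2:32536290-32536539, plus strand): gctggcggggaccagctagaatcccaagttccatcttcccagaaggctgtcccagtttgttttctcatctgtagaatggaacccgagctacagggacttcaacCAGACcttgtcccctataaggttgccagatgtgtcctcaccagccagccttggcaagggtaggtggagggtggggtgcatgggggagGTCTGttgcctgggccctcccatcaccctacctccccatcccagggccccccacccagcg
Acvrl1 (chr15:101026209-101026458, plus strand): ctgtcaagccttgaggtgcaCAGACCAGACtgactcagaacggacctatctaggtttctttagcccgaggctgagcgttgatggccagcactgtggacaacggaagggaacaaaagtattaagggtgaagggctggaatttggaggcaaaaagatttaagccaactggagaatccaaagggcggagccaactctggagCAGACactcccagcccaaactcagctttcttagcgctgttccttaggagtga
Acvr1 (chr2:58457771-58458020, minus strand): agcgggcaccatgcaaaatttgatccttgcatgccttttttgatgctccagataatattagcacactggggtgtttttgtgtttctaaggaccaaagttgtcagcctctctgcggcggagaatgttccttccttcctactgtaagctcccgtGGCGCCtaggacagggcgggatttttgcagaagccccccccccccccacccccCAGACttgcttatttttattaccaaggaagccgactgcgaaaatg
Bmpr2 (chr1:59802294-59802543, plus strand): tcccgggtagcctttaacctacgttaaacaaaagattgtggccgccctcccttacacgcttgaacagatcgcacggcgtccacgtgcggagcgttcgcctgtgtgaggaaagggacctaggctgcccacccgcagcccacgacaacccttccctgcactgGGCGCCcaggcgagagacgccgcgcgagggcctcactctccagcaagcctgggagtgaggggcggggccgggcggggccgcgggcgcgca
Tgfbr2 (chr9:116004801-116005050, minus strand): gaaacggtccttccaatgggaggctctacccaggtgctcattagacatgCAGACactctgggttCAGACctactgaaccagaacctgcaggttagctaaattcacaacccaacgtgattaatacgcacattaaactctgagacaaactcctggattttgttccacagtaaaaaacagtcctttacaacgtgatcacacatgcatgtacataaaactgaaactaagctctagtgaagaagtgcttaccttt

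GGCGCC was present in the windows of *Acvr1* and *Bmpr2*, 92 and 84 bases before the start, and in neither *Eng* nor *Acvrl1*. It was also found in the windows of *Bmpr1a*, which holds 2 copies, and *Tgfbr1*, so that 4 of the 10 receptor genes had a match, against 9.31% of the 21770 protein-coding promoters of the same length. GTCTG or CAGAC was found in 7 of the 10 windows and in 41.3% of all promoters. *Acvrl1* had 3 such matches, *Eng* and *Tgfbr2* had 2 each, and *Bmpr2* had none. Neither motif divided the genes that rose from those that did not: *Bmpr2* holds only the first, *Eng* and *Acvrl1* hold only the second, and *Tgfbr2* shares the second with them. The GC content of the windows ran from 42.8% in *Tgfbr2* to 76% in *Bmpr1a*, and the median for all promoters was 53.2%. Among the windows with GGCGCC it was 75.2% in *Tgfbr1*, 76% in *Bmpr1a*, 67.6% in *Bmpr2* and 51.2% in *Acvr1*. The promoters used for the shares were not matched for GC content.

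Endoglin had the highest mean level of the receptor transcripts in Ctrl cells. Levels of different genes were compared as CPM per kilobase of the deposited gene length. In Ctrl PBS cells *Eng* stood at 114 ± 23.1 CPM per kilobase (SD, n = 4), *Acvrl1* followed at 60.3 ± 13.4 and *Tgfbr2* at 37.0 ± 21.5. *Tgfbr3* reached 21.2 ± 2.76 and *Tgfbr1* 13.6 ± 5.48 CPM per kilobase. *Acvr1* at 9.63 ± 1.01, *Bmpr2* at 9.57 ± 1.01 and *Bmpr1a* at 7.94 ± 2.40 CPM per kilobase lay close together, and their order varied between isolations. *Acvr2a* stood at 4.68 ± 1.64 and *Acvr2b* at 0.424 ± 0.134 CPM per kilobase. Among neighbours in this order, the libraries of *Eng* and *Acvrl1* did not overlap, nor did those of *Acvr2a* and *Acvr2b*, whereas all other neighbouring pairs overlapped. *Acvrl1* lay above *Tgfbr2* in 2 of 4 isolations, and *Tgfbr3* lay above *Tgfbr1* in 4 of 4. The level plot shows the same spread.

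In KO PBS cells the other 9 genes stood in the order of Ctrl PBS cells, except that *Bmpr2* and *Acvr1* changed places, with *Acvrl1* first at 63.5 ± 12.9 CPM per kilobase, while *Eng* fell to the fifth place at 12.7 ± 2.07. In KO pro:BMP9 cells *Eng* stood behind *Acvrl1* and *Tgfbr2* at 29.8 ± 1.78 CPM per kilobase. These ranks depend on the length used. With the length of the GENCODE canonical transcript, an alternative chosen after the lengths were seen, the mean level of *Acvrl1* in Ctrl PBS cells was 119 CPM per kilobase and came near the 132 of *Eng*, since that transcript has 2162 bases against a deposited length of 4265. *Eng* then lay above *Acvrl1* in 2 of 4 isolations of Ctrl PBS cells, with ratios from 0.813 to 1.46, and in 4 of 4 of Ctrl sENG(M):BMP9 cells. *Acvr2b* then stood at 0.155 CPM per kilobase and stayed last.

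**Figure D2:**
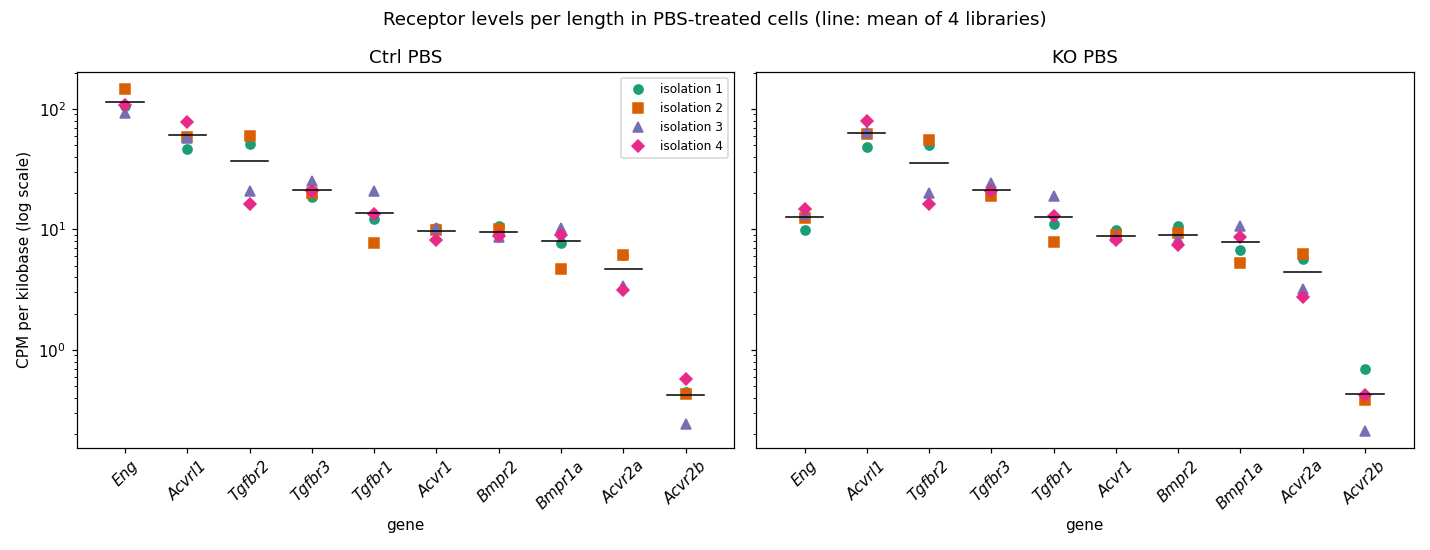
Level of each receptor gene (x axis) in CPM per kilobase of the deposited gene length (y axis, log scale) in Ctrl PBS cells (left) and KO PBS cells (right). Symbols are the 4 isolations and lines their mean. *Eng* is first in Ctrl cells at 114 and stands at 12.7 in KO cells, and *Tgfbr2* lies in separate pairs of isolations in both panels.

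*Eng* (ENSMUSG00000026814, GRCm39 chr2:32536607-32572681, plus strand, 15 exons) is the gene targeted in the KO cells and checks the labels. It stood at 432, 594, 375 and 439 CPM in isolations 1 to 4 of Ctrl PBS cells and at 40.1, 50.5, 54.3 and 60.0 CPM in KO PBS cells. Every KO library lay below every Ctrl library. The fit gave a log2 fold change of -3.15 ± 0.11 (SE; adjusted p = 2.69e-12, edgeR quasi-likelihood test), and *Eng* was 1 of 3 genes that fell in KO PBS cells, 0.0191% of those tested. Within an isolation, KO PBS cells kept between 8.51% and 14.5% of the *Eng* CPM of Ctrl PBS cells, with a mean of 11.5% ± 3.02 (SD, n = 4). The count table does not separate reads from the floxed exons from reads of the rest of the gene, and GENCODE places *Fpgs* on the opposite strand over part of *Eng*.

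*Eng* itself rose after ligand in both genotypes. Ctrl sENG(M):BMP9 cells held 652, 776, 525 and 612 CPM, above Ctrl PBS cells of the same isolation in 4 of 4, although the groups overlapped. The rise was 1.40-fold (95% confidence interval 1.22 to 1.61; adjusted p = 0.00163, edgeR quasi-likelihood test). KO pro:BMP9 cells held 115.0, 129.8, 122 and 114.5 CPM, all above the 4 KO PBS libraries, a rise of 2.35-fold (2.01 to 2.74; adjusted p = 2.80e-07). The remaining transcript in KO pro:BMP9 cells was 26.8% ± 4.43 of that in Ctrl PBS cells and 19.1% ± 2.93 of that in Ctrl sENG(M):BMP9 cells (SD, n = 4).

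Whether *Eng* responded differently in the genotypes depends on the scale. On the log2 scale the response in KO cells exceeded that in Ctrl cells by 0.75 ± 0.14 (SE), with 0.45 to 0.97 in single isolations and the same direction in 4 of 4. In CPM the gain was smaller in KO cells, at 69.2 ± 10.8 against 181 ± 29.3 in Ctrl cells (SD, n = 4). Of all 15693 genes tested for this difference, *Eng* had the lowest unadjusted p in the edgeR fit (5.88e-05), but its adjusted p was 0.923, and 0% of genes passed. At an unadjusted p under 0.05 there were 565 genes, 1 of them a receptor gene. With DESeq2 and the block 52 genes passed, and after quantile normalisation and ComBat 17 passed in DESeq2. *Eng* passed in the latter, a fit without an isolation term (adjusted p = 8.01e-06), and with no filter on low counts in edgeR (6.42e-32). It missed the threshold in the other alternatives. The form of the ligand differed between the genotypes as well.

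*Tgfbr3* (ENSMUSG00000029287, chr5:107254436-107437495, minus strand), whose product presents TGF-β2, did not pass in any comparison. Its libraries ran from 109.6 to 164 CPM, and all groups overlapped. After ligand its log2 fold change was -0.06 ± 0.05 in the Ctrl and -0.0019 ± 0.05 in the KO genotype (SE), with 95% confidence intervals of -0.16 to 0.03 and -0.10 to 0.09. With *Eng* high in Ctrl cells and low in KO cells, the share of *Eng* in the summed level per kilobase of both co-receptors was 83.9% ± 3.90 with PBS and 88.3% ± 3.32 with ligand in Ctrl cells (SD, n = 4). In KO cells it was 37.3% ± 4.21 with PBS and 58.4% ± 3.21 with ligand. *Tgfbr3* was the more abundant co-receptor transcript only in KO PBS cells, in 4 of 4 isolations.

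**Figure D3:**
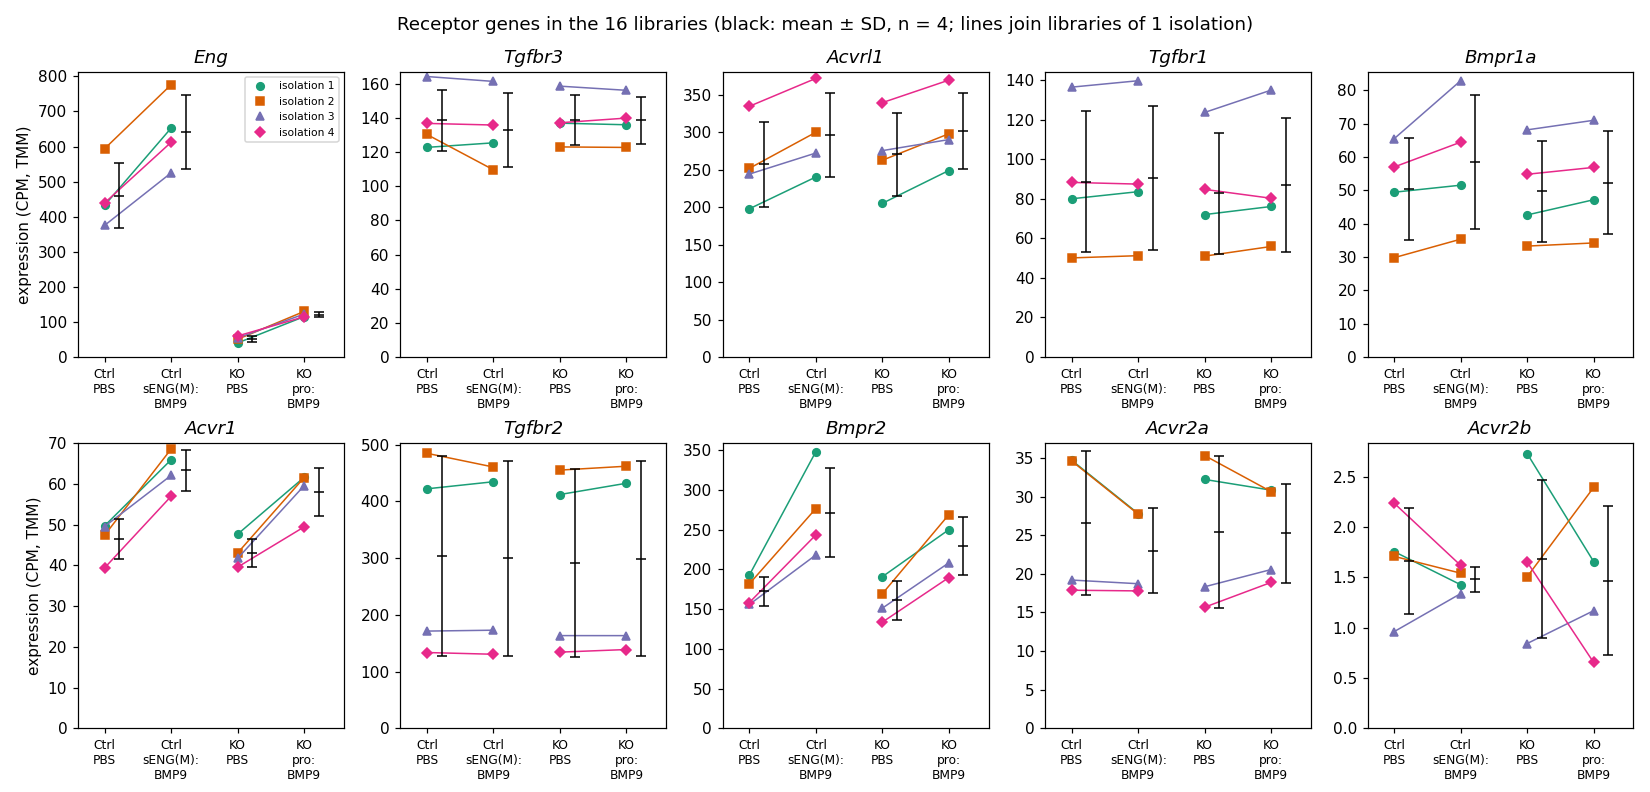
Expression of each receptor gene in CPM (y axis, from 0) in the 4 groups (x axis). Coloured symbols are isolations 1 to 4, lines join the PBS and ligand libraries of an isolation, and black bars are mean ± SD (n = 4). The lines of *Eng*, *Acvr1*, *Acvrl1*, *Bmpr2* and *Bmpr1a* rise in every isolation of both genotypes, those of *Bmpr1a* by little in KO cells. *Tgfbr2* lies between 412 and 485 CPM in isolations 1 and 2 and between 130.5 and 173 CPM in isolations 3 and 4.

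Among the type I receptors, *Acvrl1* and *Acvr1* rose in both genotypes. *Acvrl1* (ENSMUSG00000000530, chr15:101026403-101043217, plus strand), the type I receptor for BMP9, stood at 198, 252, 244 and 335 CPM in Ctrl PBS cells and at 240.4, 300.1, 272 and 372 CPM in Ctrl sENG(M):BMP9 cells. In KO cells it went from 205, 263, 276 and 339.6 CPM with PBS to 249, 298, 290.3 and 369.7 CPM with pro:BMP9. Isolation 4 was highest in each group and isolation 1 lowest, and the groups overlapped, but the ligand library was the higher in 4 of 4 isolations of each genotype. The rise was 1.16-fold in Ctrl cells (1.09 to 1.23; adjusted p = 0.00113, edgeR) and 1.12-fold in KO cells (1.06 to 1.19; adjusted p = 0.0151). The KO call was lost without replicate 1 (adjusted p = 0.19) or replicate 2 (0.123).

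*Acvr1* (ENSMUSG00000026836, chr2:58278656-58457169, minus strand), a type I receptor for BMPs and activins, rose by more. It stood at 49.7, 47.4, 49.6 and 39.4 CPM in Ctrl PBS cells and at 65.9, 68.6, 62.1 and 57.0 CPM after sENG(M):BMP9. KO PBS cells held 47.7, 43.0, 41.7 and 39.6 CPM and KO pro:BMP9 cells 61.6, 61.6, 59.6 and 49.4 CPM. The ligand and PBS libraries did not overlap in either genotype. The rise was 1.36-fold in Ctrl cells (1.27 to 1.46; adjusted p = 2.66e-06, edgeR) and 1.35-fold in KO cells (1.25 to 1.45; adjusted p = 8.65e-06).

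*Bmpr1a* (ENSMUSG00000021796, chr14:34132691-34225298, minus strand), a type I receptor for BMP2 and BMP4, passed in Ctrl cells. It stood at 49.5, 29.8, 65.5 and 57.0 CPM with PBS and at 51.6, 35.4, 82.9 and 64.5 CPM with sENG(M):BMP9. This was a rise of 1.15-fold (1.07 to 1.25; adjusted p = 0.0153, edgeR), which missed the threshold without replicate 3 (0.204) or replicate 4 (0.0566). In KO cells the libraries held 42.6, 33.3, 68.2 and 54.8 CPM with PBS and 47.2, 34.2, 71.0 and 56.9 CPM with pro:BMP9. This was a log2 fold change of 0.07 ± 0.05 (SE; adjusted p = 0.644, edgeR). The ligand library was the higher in 4 of 4 isolations of each genotype. The test of the difference of both responses gave -0.13 (-0.29 to 0.03), so that a difference between the genotypes was not shown.

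*Tgfbr1* (ENSMUSG00000007613, chr4:47353222-47414931, plus strand), the type I receptor for TGF-β, ran from 50.1 to 139.7 CPM. Its log2 fold change was 0.03 (-0.07 to 0.13) in Ctrl cells and 0.06 (-0.04 to 0.17) in KO cells, and neither passed. The level per kilobase of *Acvrl1* exceeded that of *Tgfbr1* in all 16 libraries, by between 2.74-fold and 8.97-fold (4.84-fold to 15.8-fold with the canonical lengths). *Acvrl1* made up 65.8% ± 7.62 of the summed level per kilobase of the 4 type I receptor genes in Ctrl PBS cells and 67.8% ± 6.12 in KO pro:BMP9 cells (SD, n = 4). *Acvr1* took up a share of 10.8% ± 2.56 in Ctrl PBS and 12.7% ± 2.54 in Ctrl sENG(M):BMP9 cells. These shares are by the deposited lengths. With the canonical lengths those of *Acvrl1* were 76.4% ± 5.97 and 77.9% ± 4.71, and those of *Acvr1* 8.36% ± 2.07 and 9.74% ± 1.96.

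*Bmpr2* (ENSMUSG00000067336, chr1:59802559-59918173, plus strand, 13 exons), a type II receptor for BMPs, was the type II gene that rose. It stood at 193, 182, 156 and 158 CPM in Ctrl PBS cells and at 348, 276, 218 and 243 CPM in Ctrl sENG(M):BMP9 cells, without overlap. KO PBS cells held 191, 169, 151 and 134 CPM, and KO pro:BMP9 cells held 249.9, 269, 208 and 189.6 CPM, so that the highest PBS library reached above the lowest ligand library. The rise was 1.56-fold in Ctrl cells (1.43 to 1.71; adjusted p = 5.26e-07, edgeR) and 1.42-fold in KO cells (1.30 to 1.56; adjusted p = 1.85e-05), and it was seen in 4 of 4 isolations of each. It ranked 131 among all genes by p in Ctrl cells and 143 in KO cells. GENCODE lists a further protein-coding gene model on the same strand within *Bmpr2*, and reads shared between them could be split or dropped in counting.

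*Tgfbr2* (ENSMUSG00000032440, chr9:115913361-116004428, minus strand), the type II receptor for TGF-β, varied with the isolation and did not pass in any comparison. Ctrl PBS cells held 422, 485, 171 and 134 CPM and Ctrl sENG(M):BMP9 cells 435, 460.5, 173 and 130.5 CPM. KO PBS cells held 412, 455, 163 and 134 CPM and KO pro:BMP9 cells 432, 462, 163 and 139 CPM. Isolations 1 and 2 lay above isolations 3 and 4 in every group, with a ratio of means of 2.95. Some marker genes divided the isolations in the same way, with every library of isolations 1 and 2 above every library of isolations 3 and 4. This held for 5 of 12 endothelial markers (*Cdh5*, *Kdr*, *Tie1*, *Vwf* and *Cldn5*) and for *Prox1* and *Flt4* of the 4 lymphatic ones, of which *Ccl21a* ran the other way and *Lyve1* overlapped. Of the mural and fibroblast, leukocyte and epithelial markers, 1 gene of each list did so, while *Pdgfrb*, *Rgs5* and *Csf1r* ran the other way. The share of all tested genes that divided the isolations in this way was not counted. Whether these markers did so more often than other genes was therefore not tested. In every group, libraries differed less between isolations 1 and 2 and between 3 and 4 than across these pairs. In the check for duplicates in KO PBS cells, chi-square per degree of freedom was 12.75 and 24.04 within the pairs. Across the pairs it ran from 49.95 to 69.85. Over all tested genes the isolation held a median of 63.8% of the sum of squares of log2 CPM. The part of the cell make-up in the level of *Tgfbr2* was not tested. The log2 fold change after ligand was -0.01 (-0.08 to 0.06) in Ctrl cells and 0.03 (-0.04 to 0.11) in KO cells.

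*Acvr2a* (ENSMUSG00000052155, chr2:48704121-48793281, plus strand), an activin type II receptor that also serves BMPs, ran from 15.7 to 35.3 CPM. In Ctrl PBS cells it stood at 34.7, 34.6, 19.2 and 17.9 CPM and after sENG(M):BMP9 at 27.8, 27.7, 18.7 and 17.8 CPM. Each ligand library lay below its PBS library, by little in isolations 3 and 4, and the fold change of -0.18 ± 0.08 on the log2 scale (SE) did not pass (adjusted p = 0.184, edgeR). In KO cells the value was 0.02 (-0.14 to 0.18). The difference of both responses was 0.20 (-0.03 to 0.43). *Orc4* lies on the opposite strand over part of *Acvr2a* in GENCODE.

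*Acvr2b* (ENSMUSG00000061393, chr9:119231184-119264061, plus strand), the other activin type II receptor, was barely detected, with 10 to 43 counts a library. Its log2 fold change was -0.15 (-0.80 to 0.50) in Ctrl cells and -0.18 (-0.84 to 0.49) in KO cells, the widest intervals of the 10 genes, so that the direction could not be told at this depth.

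The make-up of the type II receptor transcripts moved with both the isolation and the ligand. By the deposited lengths *Tgfbr2* was the largest part in all 16 libraries, at 68.1% ± 10.1 in Ctrl PBS and 61.8% ± 11.2 in Ctrl sENG(M):BMP9 cells, and at 69.0% ± 8.48 with PBS and 64.2% ± 10.0 with ligand in KO cells (SD, n = 4). *Bmpr2* took up 15.6%, 13.3%, 26.1% and 30.5% in isolations 1 to 4 of Ctrl PBS cells and 24.9%, 20.0%, 32.9% and 41.0% after sENG(M):BMP9. In KO cells its share went from 15.8%, 13.1%, 26.4% and 27.5% to 19.2%, 19.3%, 32.7% and 34.0%. The share of *Bmpr2* was higher with ligand in 4 of 4 isolations of each genotype. *Tgfbr2* exceeded *Bmpr2* by 1.18-fold to 5.90-fold per kilobase. With the canonical lengths it did so in 15 of 16 libraries, and in isolation 4 of Ctrl sENG(M):BMP9 cells the ratio was 0.816. For *Acvrl1* and *Bmpr2*, the genes of a type I and a type II receptor, the ratio per kilobase was 6.43 ± 1.91 in Ctrl PBS cells and 4.80 ± 1.48 in Ctrl sENG(M):BMP9 cells. With the canonical lengths these ratios were 9.10 ± 2.71 and 6.80 ± 2.09. For *Eng* and *Acvrl1* the ratio by the deposited lengths was 1.95 ± 0.529 with PBS and 2.34 ± 0.542 with ligand in Ctrl cells. In KO cells it was 0.2005 ± 0.00985 with PBS and 0.429 ± 0.0707 with ligand. With the canonical lengths the ratios of *Eng* to *Acvrl1* were 1.14 ± 0.311 and 1.37 ± 0.319 in Ctrl cells and 0.118 ± 0.00580 and 0.252 ± 0.0416 in KO cells (SD, n = 4), higher with ligand in both.

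**Figure D4:**
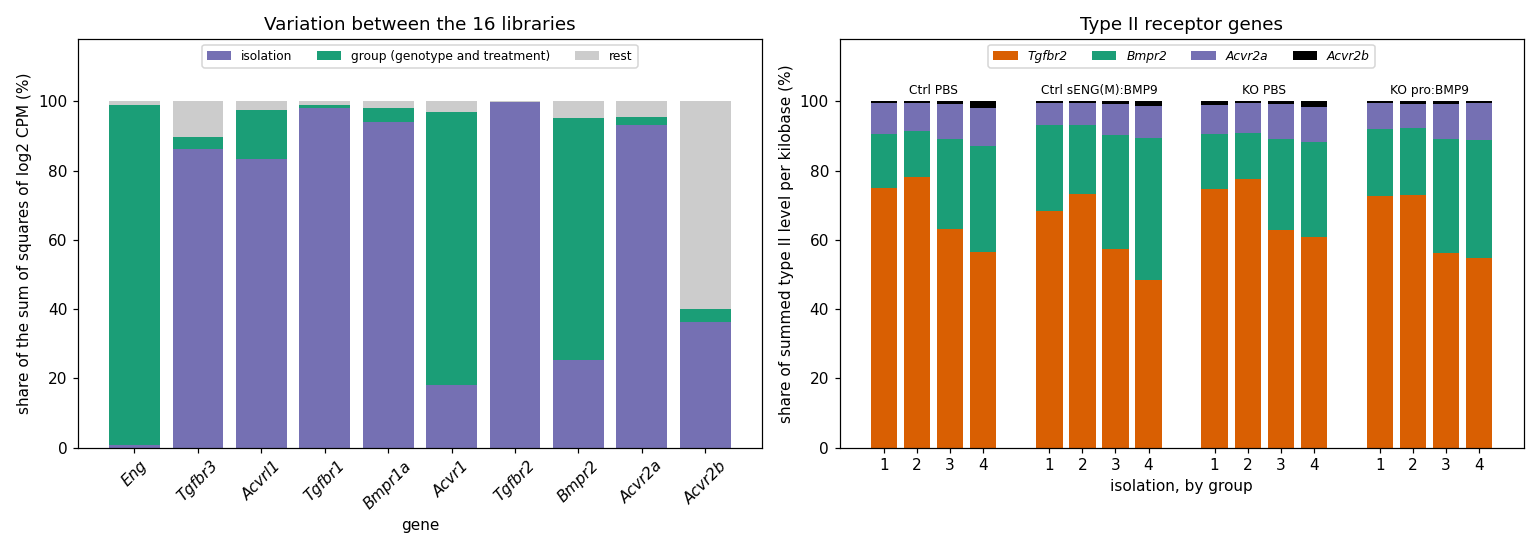
Left, share of the sum of squares of log2 CPM over the 16 libraries (y axis, %) that lies between isolations, between groups and in the rest, for each receptor gene (x axis). Right, share of each type II gene in their summed level per kilobase (y axis, %) in every library (x axis, isolations 1 to 4 in each group). The group holds 98.3% for *Eng* and the isolation 99.8% for *Tgfbr2*, and the *Tgfbr2* part is larger in isolations 1 and 2 of all groups.

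The receptor genes fell into those that varied by group and those that varied by isolation. The group, that is genotype and treatment, held 98.3% of the sum of squares of log2 CPM for *Eng*, 78.8% for *Acvr1* and 69.8% for *Bmpr2*. The isolation held 99.8% for *Tgfbr2*, 98.2% for *Tgfbr1*, 93.95% for *Bmpr1a*, 93.0% for *Acvr2a*, 86.2% for *Tgfbr3* and 83.3% for *Acvrl1*. Over all tested genes the medians were 63.8% for the isolation and 8.79% for the group. *Acvr2b* had 60.0% in neither, with its few counts. The isolation means did not order the genes alike. *Tgfbr1* and *Bmpr1a* were highest in isolation 3, at 134 and 71.9 CPM, and lowest in isolation 2, at 52.1 and 33.2 CPM. Isolation 3 had the lowest summed endothelial markers and the highest mural and fibroblast markers in every group, and isolation 2 the reverse. *Tgfbr2* was instead high in isolations 1 and 2. The part of the cell make-up in these differences was not tested.

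Between the genotypes, *Eng* was the receptor gene that passed. With PBS the other 9 had log2 fold changes that ran from -0.11 for *Acvr1* to 0.08 for *Acvrl1*, with adjusted p from 0.702 to 0.999, and apart from *Acvr2b* their 95% confidence intervals lay between -0.24 and 0.16. In ligand-treated cells, where 0.166% of all genes passed as lower, *Eng* fell by 2.40 on the log2 scale (SE 0.10; adjusted p = 1.04e-10, edgeR). *Bmpr2* was the nearest to the threshold among the others. It was lower in KO pro:BMP9 than in Ctrl sENG(M):BMP9 cells in 4 of 4 isolations, by -0.04 to -0.48 on the log2 scale, and the fit gave 0.848-fold (0.776 to 0.926; adjusted p = 0.0926). It passed with DESeq2 and the block (adjusted p = 0.0311) and after ComBat in DESeq2, a fit without an isolation term (2.58e-04). It also passed with no filter on low counts in edgeR (8.10e-06), and missed the threshold in the other alternatives. The test of the difference of the *Bmpr2* responses gave -0.14 (-0.32 to 0.05; adjusted p = 1.00). *Bmpr1a* and *Acvr1* were also lower in 4 of 4 isolations without passing, at 0.901-fold and 0.915-fold. These comparisons use the same libraries as the ligand comparisons.

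The sum of the mural and fibroblast markers was lower in KO cells, while single genes of the list differed. Their summed expression was 646, 199.9, 699 and 525 CPM in isolations 1 to 4 of Ctrl PBS cells and 497, 198.6, 626 and 363 CPM in KO PBS cells. In ligand-treated cells it was 656, 207, 718 and 539.5 CPM in Ctrl and 518, 193, 621 and 345 CPM in KO cells. It was lower in KO cells in 4 of 4 isolations of each comparison, by little in isolation 2. Different genes led the sum: *Col1a1* averaged 407 CPM in isolation 3 and *Thy1* 116 CPM in isolation 2. With PBS the log2 fold change of *Acta2* was -1.33 and -0.29 in isolations 1 and 4, but 0.65 and 0.14 in isolations 2 and 3. *Tagln* was likewise higher in isolations 2 and 3, at 0.21 and 0.53, whereas *Col1a1* was lower in 4 of 4. Of the 12 genes, 1 passed as lower with PBS and 2 with ligand, against 0.0191% and 0.166% of all tested genes. Their median log2 fold change was -0.25 with PBS and -0.30 with ligand. *Dcn*, a collagen-binding proteoglycan gene, passed in both, and *Pdgfrb*, the PDGF receptor gene of pericytes and fibroblasts, in ligand-treated cells. Like the other single genes of this list, both are named after their values were seen. With PBS *Dcn* was lower in 3 of 4 isolations, while *Rgs5* stood at -0.0068 and *Des* at 0.13 on the log2 scale without passing. The part of these cells in the genotype differences of *Bmpr2*, *Bmpr1a* and *Acvr1* was not tested.

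Of the other 4 receptors of the family, *Acvr1b* (ALK4) was the one with enough counts, and it rose by 0.20 ± 0.05 on the log2 scale in Ctrl cells (SE; adjusted p = 0.011, edgeR), with 0.10 ± 0.05 in KO cells (0.359). Among accessory and decoy receptors, 11 of 14 were tested, and the median log2 fold change was -0.05 in Ctrl and -0.06 in KO cells. In Ctrl cells 2 passed as higher and 3 as lower, and in KO cells 2 and 2. In either direction 9.69% of all tested genes passed in Ctrl and 5.59% in KO cells. *Bambi*, a pseudoreceptor without a kinase that blocks TGF-β and BMP receptors, rose 2.49-fold in Ctrl and 1.86-fold in KO cells. *Tmem204*, a claudin-like membrane protein, rose 2.10-fold and 2.14-fold. *Nrros* and *Itgb8*, which hold and activate latent TGF-β, fell in both genotypes, *Itgb8* by 0.71 and 0.65 on the log2 scale, and *Lrrc32*, another anchor of latent TGF-β, fell by 0.27 in Ctrl cells, with -0.16 in KO cells (adjusted p = 0.117).

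All 26 genes of receptor turnover and scaffolds were tested, and 6 passed in Ctrl cells and 5 in KO cells, 3 of them higher in each. Of all tested genes 9.69% and 5.59% passed in these comparisons. *Smurf2*, a ubiquitin ligase that targets receptors for degradation, rose 2.38-fold in Ctrl cells (2.26 to 2.52) and 2.07-fold in KO cells (1.96 to 2.18), more than any of the receptor genes in Ctrl cells. *Tgfbrap1*, which encodes a protein that associates with TGF-β receptors, rose by 0.23 and 0.25 on the log2 scale, *Smurf1* by 0.14 in Ctrl cells and *Pja1* by 0.18 in KO cells. *Wwp1*, another ubiquitin ligase, and *Ppp1r15a*, a phosphatase subunit, fell in both, the latter by 0.24 and 0.20, and *Zyx* fell by 0.12 in Ctrl cells. None of the genes of these 3 lists passed between the genotypes or in the difference of responses.

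Once the isolation means were removed, *Bmpr2* and *Acvr1* had the closest patterns of all pairs of receptor genes over the 16 libraries, with a Pearson correlation of 0.942. *Acvrl1* correlated with both, at 0.793 and 0.753, and with *Eng* at 0.029. Among all other genes, those most like *Eng* were *Megf9* (0.904), *Cers6*, a ceramide synthase gene (0.884), and *Scel* (0.867). The group held 98.3% of the sum of squares of *Eng*, so genes picked by this likeness are lower in KO cells by the choice itself. With PBS they were lower there, at -0.29, -0.20 and -0.63 on the log2 scale, and none passed (adjusted p from 0.244 to 0.397, edgeR). Those most like *Tgfbr2* were *Mdfic* (0.872), the DNA repair gene *Rad52* (0.853) and *Phgdh*, which encodes an enzyme of serine synthesis (0.822). With the isolation means kept, their correlations with *Tgfbr2* were 0.737, 0.409 and 0.919. The isolation held 99.8% of the sum of squares of *Tgfbr2*, so the likeness without it rests on a very small remainder. High values were also to be met by picking the highest of 15693 genes. The libraries of an isolation share their culture, and those of a group share their genotype and treatment, so these correlations are descriptions.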

How the data were processed

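Poly(A) RNA of 16 MLEC libraries was sequenced, and the authors deposited raw read counts per gene without normalisation. The submitters' processing notes name HISAT2 2.0.5, featureCounts 1.5.0-p3, DESeq2 1.26.0 and GRCm39. The libraries were stranded, while the strand setting and annotation release of the counting are not given in the sources used here. Gene symbols, lengths and positions came from the deposited table, and transcripts, overlaps and promoters from GENCODE release M39.

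Counts were analysed in R 4.3.3 with edgeR 4.0.16: filterByExpr (minimum count 10, minimum total count 15), TMM and a quasi-likelihood fit of all 16 libraries with group and isolation as terms. Benjamini-Hochberg adjustment covered the 15693 genes that passed the filter, in each of 5 comparisons. Log2 CPM used a prior count of 2. The replicate numbers are those of the isolations, and the deviations of libraries from their group means correlated at 0.757 on average within a number (24 pairs, lowest 0.67). Between numbers the mean was -0.251, a negative value that follows from the first, since deviations within a group cancel out. No libraries were duplicates. The procedure was tested on simulated data with changes of 1 or 2 on the log2 scale. Smaller changes, such as those of most receptor genes called here, were not simulated.

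All 10 receptor genes are named, with genes of 3 receptor-related lists that passed, *Id1*, *Id3*, *Smad6* and *Smad7*, and the 3 genes most correlated with *Eng* and with *Tgfbr2* after the isolation means were removed. The members and lists were chosen with earlier results of these data known. The alternatives were no block, DESeq2 1.42.0 with the block, quantile normalisation with ComBat (sva 3.50.0) and DESeq2, RLE size factors, other filters, only the libraries compared, each replicate left out, and other length scalings. Library totals were 14869115 to 17242117 counts, and confidence intervals come from the spread between libraries.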

Additional observations from a re-analysis of the deposited data

Results flagged for a closer look

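Of the 40 groups of 4 libraries examined (10 receptor genes in 4 groups), 1 held a library that stood apart by Dixon's test, and chance alone marks about 1 in 20. *Acvr1* stood at 49.4 CPM in replicate 4 of KO pro:BMP9 cells, against 59.6 to 61.6 CPM in the other replicates. Replicate 4 was also the lowest for *Acvr1* in each of the other groups, and the rise of *Acvr1* in KO cells passed without it.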

How the results depend on the processing

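Of the 11 calls of receptor genes, 110 of 121 values under the 11 alternative fits stayed past the threshold, 11 did not, and 0 reversed. Without the replicate block, 1 receptor gene passed in Ctrl cells after ligand (*Acvr1*) and 1 in KO cells (*Eng*), with 167 and 91 genes in all, and adjusted p without the block was 0.256 for *Eng* and 0.0601 for *Bmpr2* in Ctrl cells and 0.0761 for *Acvr1* and 0.388 for *Bmpr2* in KO cells. Only 1 gene passed between the genotypes without the block, with PBS and with ligand alike, and 1 with PBS when only the libraries compared were fitted. Between PBS-treated genotypes 60 genes passed with DESeq2 and the block, 169 after ComBat and 204 with no filter. Between ligand-treated genotypes these numbers were 200, 533 and 517, with 2 receptor genes in each (*Eng* and *Bmpr2*). For ligand in KO cells ComBat gave 1340 genes. In the difference of responses, DESeq2 gave 52 genes, ComBat 17 with 1 receptor gene (*Eng*) and no filter 52 with 1. The cause of these differences was not tested.

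With each replicate left out, the receptor genes called numbered 4 to 5 in Ctrl and 3 to 4 in KO cells after ligand, 1 between the genotypes in both states and 0 for the difference. All genes called numbered 573 to 745 in KO cells after ligand, the lowest without replicate 2, 1 to 69 between PBS-treated genotypes (1 without replicate 3, 69 without replicate 4), and 6 to 175 between ligand-treated ones (6 without replicate 1, 15 without 2, 16 without 3 and 175 without 4). Reversed signs occurred in 23 of 419 values that had not passed. Log2 fold changes then ranged from -0.036 to 0.011 for *Tgfbr2* in Ctrl cells after ligand, and in KO cells from -0.013 to 0.0041 for *Tgfbr3*, from -0.047 to 0.11 for *Acvr2a* and from -0.55 to 0.070 for *Acvr2b*. Between PBS-treated genotypes they ranged from -0.045 to 0.037 for *Tgfbr3*, from -0.066 to 0.043 for *Bmpr1a* and from -0.29 to 0.18 for *Acvr2b*. Between ligand-treated genotypes the ranges were -0.027 to 0.026 for *Tgfbr2* and -0.35 to 0.25 for *Acvr2b*. In the difference of responses they were -0.0044 to 0.092 for *Tgfbr3*, -0.088 to 0.045 for *Acvr1* and -0.40 to 0.17 for *Acvr2b*. Without the block, *Acvr2a* reversed to -0.0081 in KO cells after ligand and *Acvr2b* to 0.014 between PBS-treated genotypes (0.012 after ComBat), and with no filter *Tgfbr2* reversed to 0.0022 between ligand-treated genotypes.

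By CPM with no length correction 3 of the 10 receptor genes kept their rank in Ctrl PBS cells, by the canonical transcript length 8 and by library totals 10. *Acvr2b*, at 10 to 43 counts, limits what depth can show.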
